A study of Oryza sativa with 12 samples.

Results

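Of the 42477 probes on a rice microarray, 93 were detected on at most 1 of 6 arrays of OsERF106MZ-overexpressing shoots (OE) and on at least 5 of 6 arrays of shoots of the parent cultivar Tainung 67 (TNG67). Detection meant that 50% or more of the spots of a probe carried the scanner's flag for signal well above background. The mirrored choice, at least 5 OE arrays and at most 1 TNG67 array, held 65 probes. The flags of both genotypes chose the 93 probes, so every difference between OE and TNG67 given for them is a description, with no test. These were faint probes. The median of their mean normalized log2 signals was 4.60 in OE and 5.23 in TNG67, and the TNG67 median lay at percentile 1.36 of the 34004 probes detected on at least 5 TNG67 arrays. A laxer flag of the scanner, signal positive and significantly above background, was carried by 54 of the 93 on all 6 OE arrays and by 88 on all 6 TNG67 arrays, and each of the 93 carried it on at least 2 OE arrays. The data therefore do not show these transcripts to be absent from OE, and the set is described here as faint probes that crossed a detection limit in TNG67.

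The arrays were made from shoots of seedlings 7 days old that were kept for 1 further day with 150 mM or 0 mM NaCl. The 4 groups were OE with 150 mM NaCl, OE with 0 mM NaCl, TNG67 with 150 mM NaCl and TNG67 with 0 mM NaCl, with 3 arrays in each. OE plants carry OsERF106MZ under the cauliflower mosaic virus 35S promoter, which is active in most plant tissues, in a Tainung 67 background, while TNG67 plants carry no transgene. The OE line is not given by the labels, and the level of OsERF106MZ on the arrays was not analysed here. Seedlings of both genotypes were grown and sampled as whole shoots, so fewer cells that make a transcript and less of it per cell cannot be told apart. The shoot identity of the samples was not checked, because no marker gene could be paired with a probe.

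OsERF106MZ belongs to the ethylene response factors, plant transcription factors with an AP2/ERF DNA-binding domain, some of which activate and some of which repress their targets. High NaCl puts shoots under osmotic stress and, as sodium builds up, under ionic stress, and transcription factors of this family take part in the response. Many of them bind a short promoter element, the GCC box.

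Of the 93 probes, 89 were gene probes and 4 were miRNA probes. Those 4 made up 4.3% of the set, and the 510 miRNA probes of the array made up 1.2% of all probes. A single spot measured each of 89 probes, and 2 spots measured each of the other 4. A locus of the MSU rice annotation could be given to 33 probes. It stood beside the probe in the gene lists given with the study for 16, and 17 were placed by a unique match of listed fold changes to the deposited normalized values. All named members on chromosomes 6 to 12 were placed by this match. These lists hold genes that differed between the genotypes, so the named members are no random share of the 93. The named loci lay on all 12 chromosomes, with between 1 and 5 on each, and none of these 33 lay within 50 locus numbers of another, the smallest distance being 1690. No locus was shared between any of the 33 probes, and the 60 probes without a locus could not be checked for neighbours or shared loci. Descriptions of the loci were not used here, except for LOC_Os09g26999, which is DEP1, a gene for a heterotrimeric G protein gamma subunit known for its control of panicle architecture.

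Detection varied among arrays of the same genotype as well as between genotypes. With 150 mM NaCl, 1, 20 and 5 of the 93 probes were detected on OE replicates 1, 2 and 3, and 93, 81 and 52 on TNG67 replicates 1, 2 and 3. With 0 mM NaCl, the numbers were 1, 34 and 1 on the OE arrays and 87, 93 and 89 on the TNG67 arrays. Replicate 2 of every group lay on slide 3 and was scanned at another time, while replicates 1 and 3 of OE lay on slide 2 and those of TNG67 on slide 1. Of the 62 detections that the rule allowed in OE, 54 were on slide 3. The slide 3 arrays were brighter, with median spot signals of 582 to 814.5 intensity units against 315.5 to 430.5 on the other slides. They detected 85.9% to 88.0% of all probes, against 79.3% to 80.9% on slide 2 (OE) and 80.0% to 82.5% on slide 1 (TNG67). The flag also began at different processed signals of the scanner. For single-spot probes, its lower end (0.1 percentile of flagged probes) was 12.9 to 15.0 units on slide 2. It was 10.9 to 15.3 units on slide 1 and 10.2 to 11.3 units on slide 3, so detection had no common threshold. The part of brightness and of these limits in the detections was not tested. Replicate 3 of NaCl-treated TNG67 missed 41 of the 93 probes, which was 41 of the 63 misses on TNG67 arrays. This array detected 80.0% of all probes, and its lower end of the flag, 15.3 units, was the highest of the 12 arrays.

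**Figure D1:**
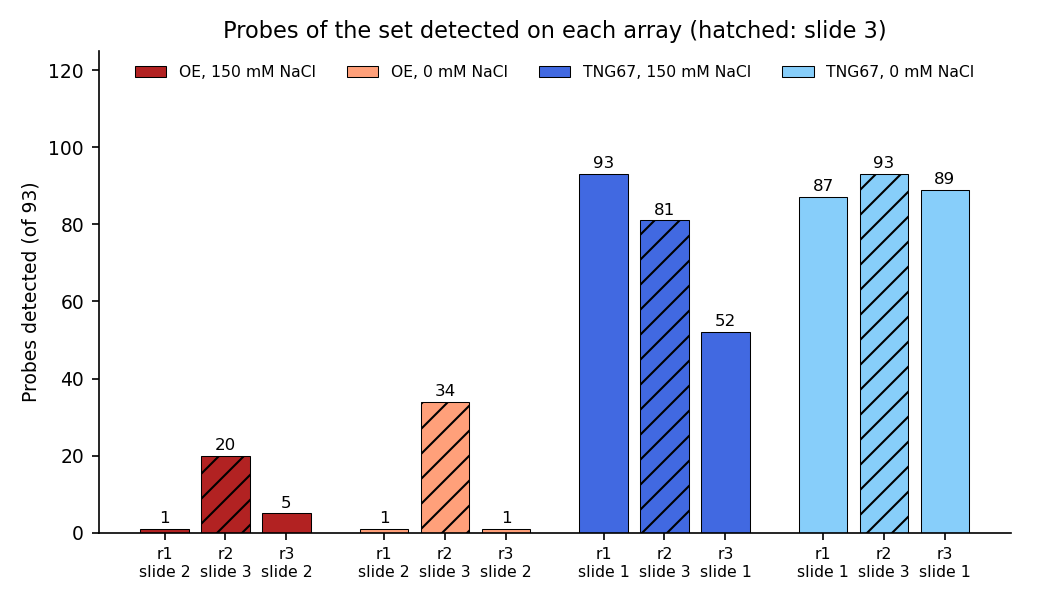
Bars give the number of the 93 probes detected on each array (y axis), by group, replicate and slide (x axis), with slide 3 hatched. OE arrays detected between 1 and 34 of the probes and TNG67 arrays between 52 and 93, and the 2 highest OE bars are those of slide 3.

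By the combination of arrays, 11 probes were detected on no OE array and all 6 TNG67 arrays, 19 on 1 OE array and all 6 TNG67 arrays, 20 on no OE array and 5 TNG67 arrays, and 43 on 1 OE array and 5 TNG67 arrays. The 43 probes at the edge of the rule therefore made up the largest part of the set. The first 11, for which both genotypes were complete, included LOC_Os10g05490, LOC_Os12g02450, LOC_Os02g13310, LOC_Os04g35430, LOC_Os06g18960, LOC_Os03g38800 and LOC_Os07g06470, the miRNA probe CUST_310_miRNA and 3 gene probes without a locus.

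Signals were compared as normalized log2 values, from the median spot signal after background correction and quantile normalization. Over the 93 probes, the median log2 difference of OE minus TNG67 was -0.68 with 150 mM NaCl (quartiles -0.90 and -0.29) and -0.85 with 0 mM NaCl (quartiles -1.16 and -0.40). Over all 37144 tested probes, those detected on at least 3 of the 12 arrays, it was -0.02 and 0.01. The size of these differences depended on the signal scale. On the processed signals of the scanner, aligned at the 75th percentile of each array, the medians of the 93 were -1.15 and -1.48, and with an offset of 50 added in the background correction they were -0.24 and -0.33. The mean was lower in OE for 89 of the 93 probes with 150 mM NaCl and for 92 with 0 mM NaCl, a direction that the choice of the probes favours. It was more than 2-fold lower for 13 under both conditions, for 6 with 150 mM NaCl only, for 20 with 0 mM NaCl only and for 54 under neither. No share over all tested probes stands beside these counts, so nothing is read from them. The median SD between the 3 arrays of a group was 0.26 and 0.35 in OE and 0.36 and 0.29 in TNG67 for the 93 probes, with 150 mM and 0 mM NaCl in each case, and 0.21, 0.21, 0.27 and 0.20 in the same order for all tested probes.

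**Figure D2:**
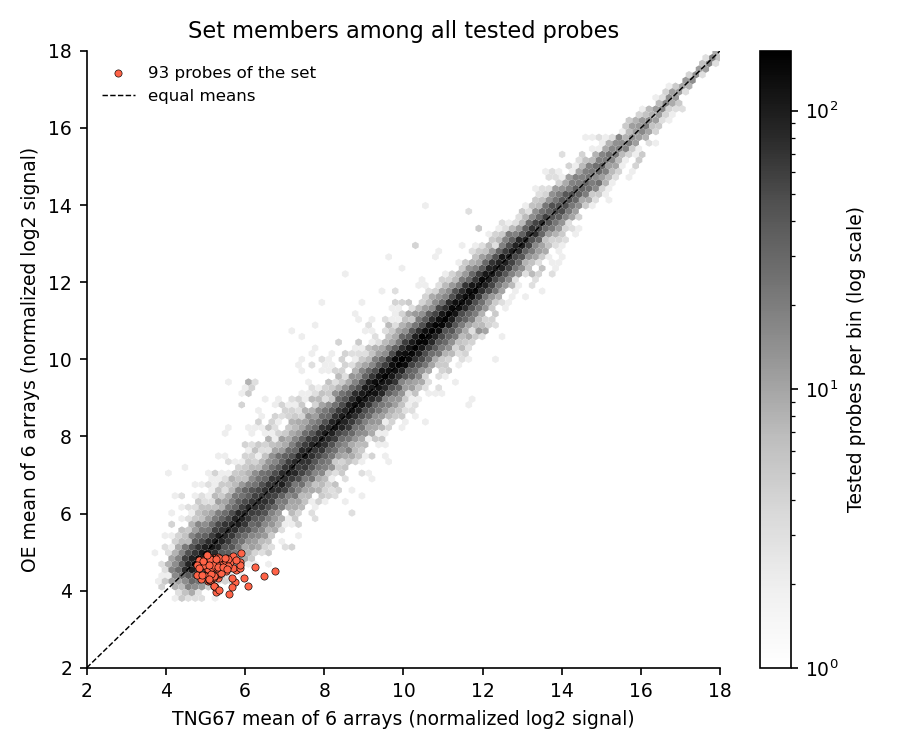
The mean normalized log2 signal in OE (y axis, 6 arrays) is set against that in TNG67 (x axis, 6 arrays) for the 37144 tested probes in grey and the 93 probes in red. The 93 lie at the faint end and below the line of equal means, with OE means of 3.92 to 4.98 and TNG67 means of 4.79 to 6.77.

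In 20 of the 93 probes, all 6 OE arrays read lower than all 6 TNG67 arrays. This was so for 859 of the 37144 tested probes (2.31%), and since the rule used the same contrast nothing is read from the larger share. Within 1 NaCl condition, all 3 OE arrays lay below all 3 TNG67 arrays for 39 probes with 150 mM NaCl (12.3% of all tested probes) and for 56 with 0 mM NaCl (17.3%). Of the 20 fully separated probes, 12 had a locus, and these are described next. On the processed signals, 12 of the 20 were also separated, 8 of the 12 loci among them, while the arrays of LOC_Os02g01270, LOC_Os02g13310, LOC_Os06g17020 and LOC_Os10g19180 overlapped there.

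The widest gap between the highest OE array and the lowest TNG67 array, 1.36 on the log2 scale, was that of LOC_Os02g19470 (Os02g0297200). Its log2 signals with 150 mM NaCl were 4.62, 4.26 and 4.60 on the OE arrays and 6.97, 5.98 and 6.41 on the TNG67 arrays, and with 0 mM NaCl 4.32, 4.59 and 3.96 on the OE arrays and 6.46, 6.64 and 6.39 on the TNG67 arrays. No OE value came near a TNG67 value on any slide. The difference was -1.96 with 150 mM NaCl, a 3.89-fold lower mean in OE, and no OE array detected the probe there. Fold values given below with "at least" are bounds. For a bound, an array that did not detect the probe was raised to the faintest signal that carried the flag on that array, where it read below it, and the bound holds by that rule only. Where no array read below that signal, none was raised and the observed ratio is given. With 0 mM NaCl the difference was -2.21, and the slide 3 array of OE detected the probe. In the scanner's processed intensities, before any normalization between arrays, this probe read 3.86, 4.26 and 3.43 units on the NaCl-treated OE arrays and 91.5, 78.5 and 52.8 units on the NaCl-treated TNG67 arrays.

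LOC_Os10g05490 (Os10g0144700) was detected on no OE array and on all 6 TNG67 arrays. It read 4.03, 4.19 and 4.28 in NaCl-treated OE and 5.73, 6.53 and 5.35 in NaCl-treated TNG67, with 4.43, 4.59 and 4.53 in untreated OE and 6.47, 6.15 and 5.56 in untreated TNG67. OE was at least 2.99-fold lower with 150 mM NaCl and, with no array raised, 2.91-fold lower with 0 mM NaCl. The separation held within slide 3 as well, where the mean difference over both conditions was -1.95, against -1.46 between slides 1 and 2.

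LOC_Os12g02450 (Os12g0116700) showed the same complete pattern of detection. Its values were 4.82, 4.29 and 4.64 in NaCl-treated OE, 6.23, 6.06 and 5.28 in NaCl-treated TNG67, 4.82, 3.99 and 4.61 in untreated OE and 5.68, 5.75 and 5.65 in untreated TNG67. OE was 2.42-fold and 2.32-fold lower with 150 mM and 0 mM NaCl, with no array raised. On slide 3 the mean difference was -1.76, and between slides 1 and 2 it was -0.98.

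LOC_Os01g23710 (Os01g0339500) varied little between the arrays of a group. It read 4.49, 4.72 and 4.83 in NaCl-treated OE and 6.02, 6.10 and 5.87 in NaCl-treated TNG67, and 4.72, 4.68 and 5.08 in untreated OE and 5.66, 5.59 and 6.02 in untreated TNG67. One NaCl-treated OE array detected it. Without NaCl, OE was 1.90-fold lower, with no array raised.

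LOC_Os12g07640 (Os12g0175400) had the most positive difference of NaCl-treated minus untreated TNG67 means among the 12 loci, 0.71. It read 4.62, 4.47 and 5.20 in NaCl-treated OE, 6.98, 6.25 and 6.60 in NaCl-treated TNG67, 4.60, 4.38 and 4.40 in untreated OE and 6.21, 5.35 and 6.13 in untreated TNG67. The lowest TNG67 array, on slide 3, lay 0.15 above the highest OE array. The difference was -1.85 with 150 mM NaCl and -1.44 with 0 mM NaCl.

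OE lay further below TNG67 without NaCl than with it for 8 of the 12 loci, and for 64 of the 93 probes. The share over all tested probes is not given, so nothing is read from these counts. Among the 8, LOC_Os06g17020 (Os06g0282000) averaged 4.53 ± 0.15 in NaCl-treated OE and 5.52 ± 0.47 in NaCl-treated TNG67, and 4.65 ± 0.36 in untreated OE and 6.21 ± 0.38 in untreated TNG67 (SD, n = 3 each). LOC_Os10g19180 (Os10g0337500) averaged 4.60 ± 0.53 in NaCl-treated OE and 5.28 ± 0.11 in NaCl-treated TNG67, and 4.43 ± 0.26 in untreated OE and 5.78 ± 0.07 in untreated TNG67 (SD, n = 3 each). Whether the genotype difference itself changed with NaCl was not tested, because the OE arrays were held at background by the choice of probes.

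LOC_Os02g13310 (Os02g0226600) reached its highest value, 6.64, on the slide 3 array of untreated TNG67, while its other TNG67 values ran between 5.04 and 5.89 and its OE values between 4.27 and 4.86. OE was 1.86-fold lower with 150 mM NaCl, with no array raised, and at least 2.42-fold lower with 0 mM NaCl.

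The remaining 4 named loci with separated arrays, LOC_Os11g44750, LOC_Os11g07980, LOC_Os01g61980 and LOC_Os02g01270, were detected on no OE array and on 5 TNG67 arrays. Their differences were between -0.86 and -0.44 with 150 mM NaCl and between -1.16 and -0.70 with 0 mM NaCl. LOC_Os01g61980 had the smallest of both, although its OE arrays were tight, with a mean of 4.29 ± 0.07 with 150 mM NaCl and 4.33 ± 0.09 with 0 mM NaCl, against 4.73 ± 0.11 and 5.03 ± 0.34 in TNG67 (SD, n = 3 each).

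Probes without a locus reached differences as large. CUST_28344 read 4.11, 4.70 and 4.40 in NaCl-treated OE and 7.12, 7.97 and 6.60 in NaCl-treated TNG67, and 5.03, 4.59 and 4.27 in untreated OE and 5.72, 6.35 and 6.83 in untreated TNG67. Its difference of -2.83 with 150 mM NaCl was the largest of the 93 under that condition. CUST_976 was detected on no OE array, with differences of -1.28 with 150 mM NaCl and -1.31 with 0 mM NaCl. CUST_4285 was flat in TNG67, between 5.42 and 5.78 on all 6 arrays, and ranged between 3.28 and 4.94 on the OE arrays, the highest of these being the untreated array of slide 3. Of the 4 miRNA probes, CUST_310_miRNA alone was detected on no OE array and all 6 TNG67 arrays. It averaged 4.23 ± 0.22 in NaCl-treated OE and 4.98 ± 0.28 in NaCl-treated TNG67, and 4.66 ± 0.55 in untreated OE and 5.32 ± 0.60 in untreated TNG67 (SD, n = 3 each), and its OE and TNG67 arrays overlapped.

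**Figure D3:**
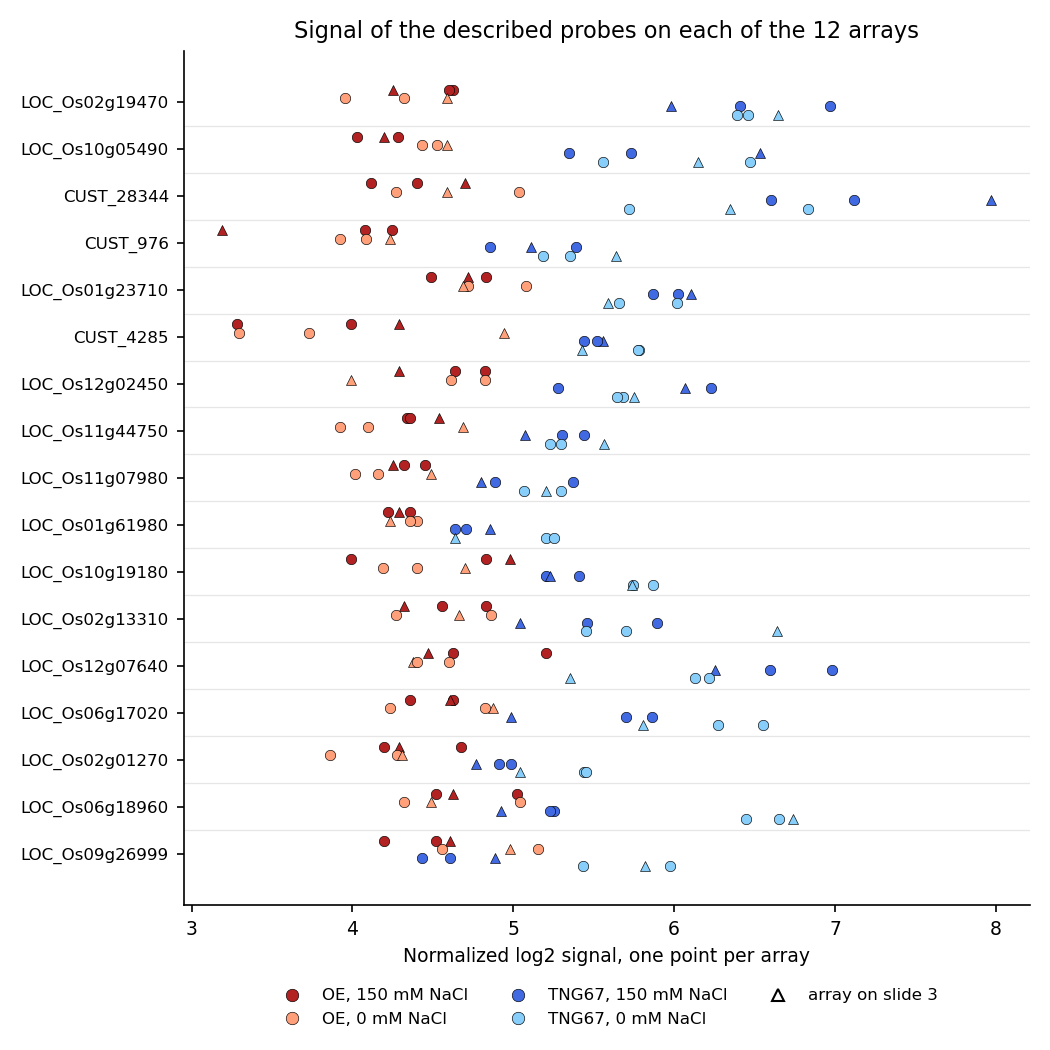
Each point is the normalized log2 signal (x axis) of 1 array for 1 probe (y axis, by locus or, where there is none, by probe), coloured by group, with triangles for slide 3. The 15 uppermost probes show all OE arrays to the left of all TNG67 arrays, and in the lowest 2, LOC_Os06g18960 and LOC_Os09g26999, the NaCl-treated TNG67 arrays lie among or close to the OE arrays.

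The rule set its limit within a continuous run of probes. Just inside it, the brightest of the 43 probes with 1 OE and 5 TNG67 arrays was LOC_Os08g26230 (Os08g0351300), which read 3.94, 4.26 and 4.25 in NaCl-treated OE, 6.35, 4.35 and 5.61 in NaCl-treated TNG67, 3.73, 4.89 and 3.73 in untreated OE and 6.64, 7.34 and 6.14 in untreated TNG67. Its difference of -2.59 with 0 mM NaCl was the largest of the 93 without NaCl. The next brightest was CUST_11098, with means of 4.23 in OE and 5.76 in TNG67. The 43 had median differences of -0.32 with 150 mM NaCl and -0.55 with 0 mM NaCl. Just outside lay 114 probes detected on at most 1 OE array and 4 TNG67 arrays, with medians of -0.31 and -0.44, the brightest being CUST_9884 (OE mean 4.32, TNG67 mean 5.67) and LOC_Os04g32840 (OE mean 4.34, TNG67 mean 5.67). A further 236 probes were detected on 2 OE arrays and at least 5 TNG67 arrays, with medians of -0.51 and -0.66. The brightest of these were CUST_4695 and LOC_Os10g36160, with TNG67 means of 9.21 and 7.76, so some probes with far stronger TNG67 signal than any of the 93 stood outside the set. CUST_4695 read 3.53, 9.14 and 4.28 in NaCl-treated OE and 9.13, 9.19 and 9.22 in NaCl-treated TNG67, and 4.32, 9.27 and 4.70 in untreated OE and 9.08, 9.40 and 9.21 in untreated TNG67. Its slide 3 arrays of OE thus read like TNG67, and its other 4 OE arrays read near background.

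Because slide 3 held 1 array of every group, the difference between the genotypes could be read there on probes chosen without it. Applied to slides 1 and 2 alone, with at most 1 of 4 OE arrays and at least 3 of 4 TNG67 arrays, the rule took 617 probes. All 93 were among them by construction, since a probe that meets the full rule also meets this rule. On slide 3, OE read lower for 413 of the 617 (66.9%) with 150 mM NaCl and for 485 (78.6%) with 0 mM NaCl, where 51.7% and 48.8% of all tested probes did. OE read lower under both conditions for 328 (53.2%), against 28.3% of all tested probes. The median log2 difference of the 617 on slide 3 was -0.16 with 150 mM NaCl and -0.33 with 0 mM NaCl, whereas between slides 1 and 2, on the arrays that chose them, it was -0.62 and -0.73. The mirrored choice on slides 1 and 2, at least 3 OE arrays and at most 1 TNG67 array, took 251 probes. On slide 3, OE read lower for 23.5% of those with 150 mM NaCl and 13.5% with 0 mM NaCl. Their median differences there were 0.55 and 0.57, further from no difference than those of the 617. With a single array per group on slide 3, no test of these differences could be made.

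Most of the 617 probes, 423, were detected on all 4 arrays of slide 3. Another 31 were detected on neither OE array and on both TNG67 arrays there, a pattern that 298 of all 42477 probes showed. None was detected on both OE arrays and neither TNG67 array. A share over all probes is given for the 31 alone. OE read more than 2-fold lower on slide 3 under both conditions for 13 of the 617 (2.11%), against 0.751% of all tested probes. Of these 13, 5 belonged to the 93, namely LOC_Os02g19470, LOC_Os10g05490, LOC_Os12g02450, CUST_28344 and CUST_976. LOC_Os05g11414 was another of the 13, and stood outside the 93 probes. It read 4.80 in NaCl-treated OE and 7.40 in NaCl-treated TNG67, and 4.87 in untreated OE and 7.23 in untreated TNG67, on that slide.

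**Figure D4:**
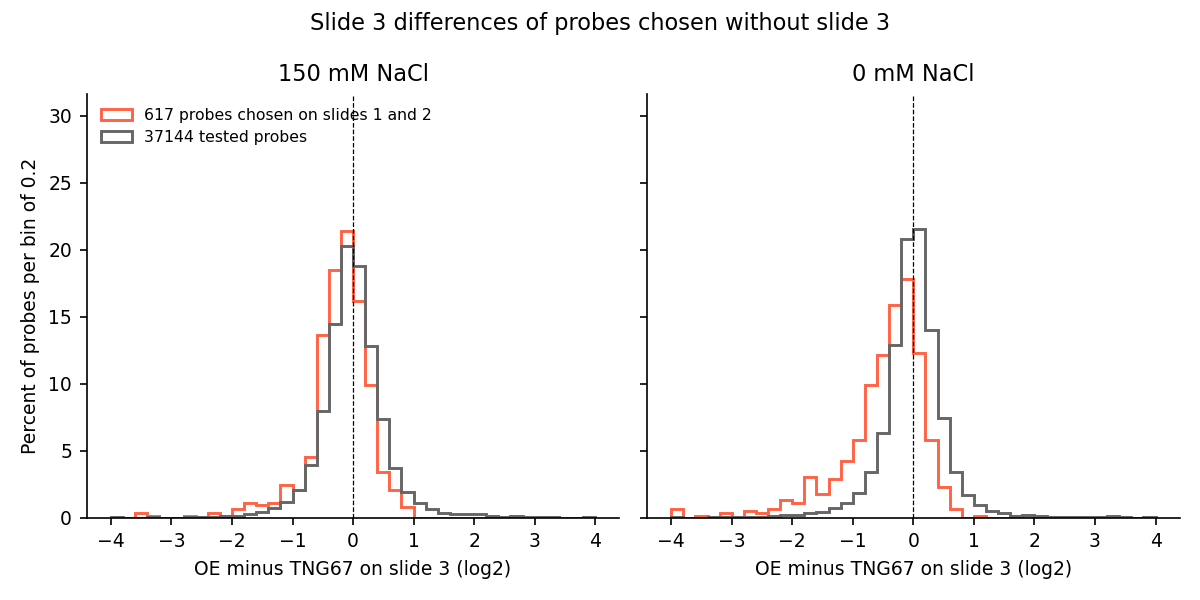
Histograms give the log2 difference of OE minus TNG67 on slide 3 (x axis, values beyond 4 drawn at 4) as the percent of probes per bin (y axis), for 617 probes chosen on slides 1 and 2 in red and 37144 tested probes in grey, with 150 mM NaCl at left and 0 mM NaCl at right. The red median is -0.16 at left and -0.33 at right, and the grey distributions are centred near 0.

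For the 93 themselves, within slide 3 the median difference was -0.40 with 150 mM NaCl and -0.59 with 0 mM NaCl, and between slides 1 and 2 it was -0.74 and -0.85. OE was lower within slide 3 for 81 probes with 150 mM NaCl (51.7% of all tested probes) and 89 with 0 mM NaCl (48.8%). Between slides 1 and 2 it was lower for 82 and 91, with no share over all tested probes beside them. The flags of all 3 slides chose the 93, so the choice favours this direction on each slide and nothing is read from it. In TNG67, both slide 3 arrays lay below all 4 slide 1 arrays for 19 of the 93 probes, where 15.7% of all tested probes did, and above them for 2, where 12.2% did.

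The rule did not use the contrast of NaCl within TNG67, where all 93 probes were tested, in a limma fit of the 4 group means to all 37144 tested probes. The limits were an adjusted p of 0.05 (Benjamini-Hochberg, over all tested probes) and a 2-fold change. Of the 93, none was upregulated by 150 mM NaCl, against 4.96% of all tested probes and 4.8% of the probes detected on at least 5 TNG67 arrays, and 2 were downregulated, against 3.97% and 4.04%. By limma's unadjusted p, 21 of the 93 (22.6%) were under 0.05, against 36.1% of all tested probes. The median log2 fold change of the 93 was -0.24, against -0.02 over all tested probes. A lower mean with NaCl was seen for 68 of the 93, a count with no share over all tested probes beside it. All 3 NaCl-treated TNG67 arrays lay below all 3 untreated ones for 17 of the 93 (19.7% of all tested probes) and above them for 5 (19.6%). The median change of the 93 was -0.21 within slide 1 and -0.26 within slide 3. A probe had to be detected on at least 5 of the 6 TNG67 arrays to enter the set, which limits how far its signal could fall under either condition. The comparison probes were also not matched for brightness. The median of mean TNG67 log2 signals was 5.23 for the 93 and 9.71 for the probes detected on at least 5 TNG67 arrays. A lesser response of the set to NaCl is therefore not read from these shares.

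The clearest response was that of LOC_Os06g18960 (Os06g0293500). In TNG67 it read 5.25, 4.92 and 5.23 with 150 mM NaCl and 6.45, 6.74 and 6.65 with 0 mM NaCl, so that the conditions did not overlap. Its log2 fold change was -1.48 (SE 0.207, limma adjusted p = 0.00114), with -1.31 within slide 1 and -1.81 within slide 3. In OE it was detected on no array, and read 5.03, 4.63 and 4.52 with NaCl and 4.32, 4.49 and 5.04 without. OE was 1.33-fold lower than TNG67 with 150 mM NaCl, with no array raised. With 0 mM NaCl OE was at least 3.95-fold lower, the highest bound of the 93. With an offset of 50 in the background correction its fold change was -0.81 (limma adjusted p = 0.000707), short of the 2-fold limit, and over all fits of it the adjusted p lay between 0.000232 and 0.0311.

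The probe of DEP1 (LOC_Os09g26999, Os09g0441900) was placed on that locus by its fold change alone. It read 4.43, 4.88 and 4.61 in NaCl-treated TNG67 and 5.98, 5.82 and 5.43 in untreated TNG67, again without overlap. Its log2 fold change was -1.10 (SE 0.209, limma adjusted p = 0.00485), with -1.19 within slide 1 and -0.93 within slide 3. In OE it read 4.19, 4.61 and 4.52 with NaCl and 4.56, 4.98 and 5.16 without, so that NaCl-treated arrays of the 2 genotypes overlapped. This call was close to the limits. With an offset of 50 its fold change was -0.48 (limma adjusted p = 0.00996), short of 2-fold. The call was also lost with replicates 1 and 3 of each group averaged (adjusted p = 0.0561 with limma) and in the methods' t-test (adjusted p = 0.0655 across all probes). Without replicate 1 of untreated TNG67 the fold change was -0.99, and without replicate 1 of NaCl-treated TNG67 it was -0.998, both under 2-fold.

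**Figure D5:**
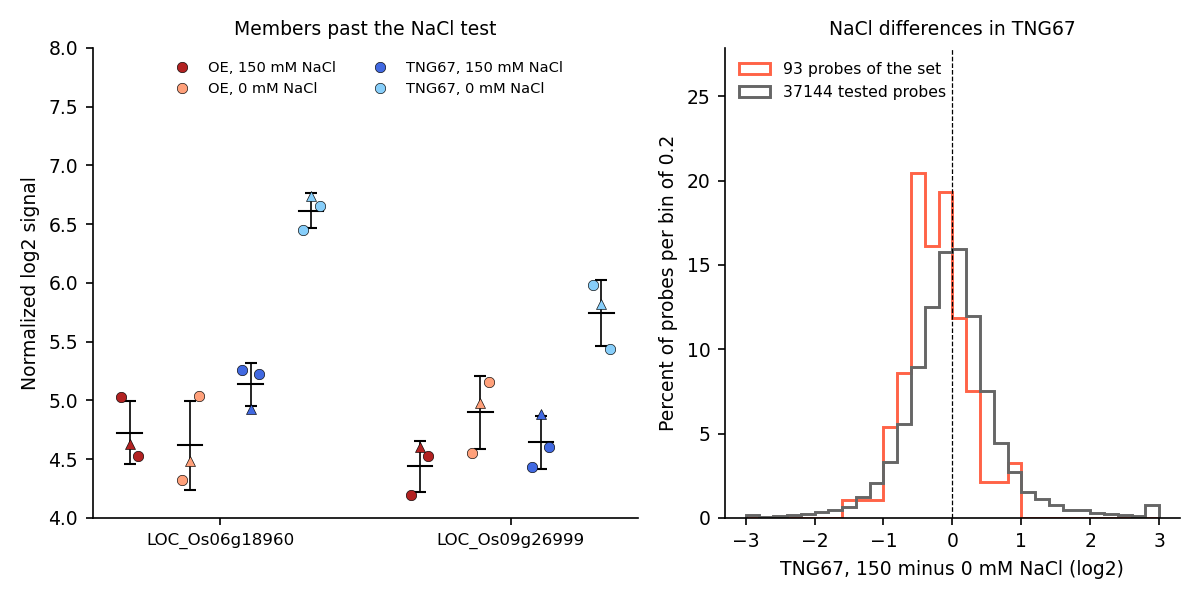
The left panel shows the normalized log2 signal (y axis) of the 2 probes past the NaCl test, with a point per array (triangles for slide 3), the mean of 3 arrays as a line and the SD as an error bar. The right panel gives the log2 change by 150 mM NaCl in TNG67 (x axis, values beyond 3 drawn at 3) as the percent of probes per bin (y axis) for the 93 probes, with a median of -0.24, and for the 37144 tested probes, with a median of -0.02.

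By the adjusted p alone, 1 of the 93 was higher with NaCl and 3 were lower, against 11.5% and 10.9% of all tested probes. A pair of these did not reach the fold limit. LOC_Os03g11874 (Os03g0218200) read 5.95, 5.87 and 5.95 in NaCl-treated TNG67 and 4.49, 5.25 and 5.31 in untreated TNG67, a log2 difference of 0.91 (SE 0.236, limma adjusted p = 0.0205), and CUST_8825 had a difference of -0.80 (SE 0.245, limma adjusted p = 0.0379). LOC_Os03g11874 was detected on no OE array, and OE was 2.23-fold lower with 150 mM NaCl, with no array raised. For the 12 separated loci, the NaCl change in TNG67 lay between -0.70 (LOC_Os06g17020, limma adjusted p = 0.0881) and 0.71 (LOC_Os12g07640, limma adjusted p = 0.0858), and none passed. LOC_Os02g19470, with the widest gap between the genotypes, had a change of -0.04 (SE 0.245, limma adjusted p = 0.924). CUST_28344 had a change of 0.93 (SE 0.369, limma adjusted p = 0.0945), and of 1.25 (limma adjusted p = 0.0467) without replicate 3 of NaCl-treated TNG67.

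Across probes, the correlation between replicates 1 and 3 of the same group was 0.9925 to 0.996, and that of either with replicate 2 was 0.965 to 0.9826. The labels call the 3 arrays biological repeats, while the numbering in a gene list given with the study makes replicates 1 and 3 one sample. The p-values therefore measure only the spread between these arrays, part of which may be technical, and with 3 arrays per group the precision of each difference is limited.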

How the data were processed

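Shoot RNA was hybridized to single-dye Agilent rice arrays, 3 in each of 4 groups, on 3 slides of 4 arrays. The authors deposited the scanner's intensity values for each spot (Agilent Feature Extraction 10.7.1.1, per the submitters' processing notes), with no normalization between arrays, together with the detection flags. They also deposited normalized log2 values, in which an array constant and the median of the probe are subtracted from the processed signals, used as an alternative. Signals of 1 untreated TNG67 array, replicate 2, were deposited rounded.

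Median spot signals less local background (normexp, offset 0) were quantile-normalized after 1417 control spots per array and outlier spots were left out, and log2 values of spots with the same probe were averaged (limma 3.58.1 in R 4.3.3). The 37144 probes detected on at least 3 arrays were fitted with lmFit and eBayes. Tested on simulated data with 200 of 37085 probes changed by 3 on the log2 scale, the NaCl comparison recovered 191 with 2 false calls.

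Groups and replicate numbers were taken from the array titles, because the source names of all untreated OE arrays carry 1 replicate number. Arrays of TNG67 with the same number deviated together (correlation 0.358 to 0.487). Replicates 1 and 3, which share a slide, correlated almost as highly across numbers (0.310 and 0.327). Either with replicate 2 of slide 3 gave -0.425 to -0.401. These correlations therefore do not tell number from slide, and a pairing by number is not shown. The main fit used no block, and the replicate number as a block was an alternative.

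The members and lists were chosen with earlier results of these data known. Probes named in the text are the 12 with a locus and the 3 without one that have the widest gap between genotypes, those past the NaCl test, and the brightest just inside and outside the rule. Other probes were named after their values were seen: LOC_Os05g11414, CUST_310_miRNA, LOC_Os03g11874, CUST_8825 and the loci listed for complete detection. Of 452 loci present in both gene lists, 434 were placed uniquely on their own probe by fold change, within 1e-05 on the log2 scale. Apart from that of DEP1, gene descriptions were not used here, nor were promoters, proteins or probe sequences.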

Additional observations from a re-analysis of the deposited data

How the results depend on the processing

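The number of probes depended on the detection limit and on the slide. Of 93, the rule kept 11 with none of 6 OE and all 6 TNG67 arrays, took 50 with the laxer flag (0 of them among the 93), 298 on slide 3 alone (31 of the 93) and 617 on slides 1 and 2 alone. With the 33664 brightest probes of each array called detected, it took 126, of which 18 were among the 93. With each array left out in turn it took between 95 and 304, the highest without replicate 2 of untreated OE (304) or NaCl-treated OE (301), then without replicate 3 (180) or 1 (140) of NaCl-treated TNG67. There, and on slides 1 and 2 alone, the rule still allowed 1 missed TNG67 array and 1 detected OE array. It was therefore looser than the full rule, kept all 93 by construction and could not take fewer.

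The median difference of OE minus TNG67 kept its sign in all alternatives, a sign that the choice of the probes favours. With 150 mM NaCl it was -0.24 with an offset of 50, -1.15 both on processed signals aligned at the 75th percentile and on the authors' values, -0.40 within slide 3, and between -0.70 and -0.52 with each array left out. With 0 mM NaCl these were -0.33, -1.48 (processed), -1.49 (authors' values) and -0.59, and -0.91 to -0.74. Under the 3 other signal scales, an alternative added after seeing the data, 18 to 20 of the 93 probes were separated (of the 20 in the report, 20 with the offset and 12 on each of the others), and 377 to 413 (150 mM NaCl) and 486 to 507 (0 mM NaCl) of the 617 read lower in OE on slide 3.

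The NaCl test upregulated 1 of the 93 and downregulated 5 on the processed signals and on the authors' values, and 0 and 0 with the offset of 50. With no fold limit it upregulated 1 and downregulated 3, against 11.5% and 10.9% of all tested probes. It downregulated 1 with only probes detected on all 6 TNG67 arrays (30 of the 93), with replicates 1 and 3 averaged, and in the methods' t-test. With each array left out it upregulated 0 to 2 and downregulated 2 to 4; 2 were upregulated without replicate 2 of NaCl-treated TNG67, and 4 downregulated without replicate 2 of untreated or replicate 1 of NaCl-treated TNG67. With the replicate number as a block, 0 were upregulated and 2 downregulated, and no call of the named probes changed. The causes were not tested. Signal over background limits all values: on OE arrays the 93 probes had a median processed signal of 7.91 intensity units, and on TNG67 arrays 21.8.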

Other observations

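CUST_4695, described beside the rule's limit, was singled out after its values were seen. It was the 1 probe of 42477 whose 4 OE arrays of slide 2 all lay more than 4-fold below the lowest TNG67 array while both OE arrays of slide 3 lay no more than 2-fold below it. No probe (0 of 42477) showed the opposite, with the slide 3 arrays of OE low and those of slide 2 not.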
